A study of Mus musculus with 52 samples.

Results

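All-trans retinoic acid (atRA) was compared with its vehicle DMSO in mouse intestinal organoids on day 5 of culture. The comparison used 8 of the 52 libraries of the series, 4 from atRA organoids and 4 from DMSO organoids. The atRA organoids received 10 µM atRA on day 0 and again on day 3, and the DMSO organoids received DMSO alone on the same days. All other conditions were shared: wild type C57BL/6 mice of 8 weeks as the source, 50000 single cells seeded in each well, RNA pooled from 3 wells, and collection 120 hours after the first treatment. ENR medium (with R-spondin, EGF and Noggin) was used in both groups, up to day 3 together with conditioned medium holding Wnt3a (20%), the GSK3 inhibitor CHIR99021 (3 µM) and the ROCK inhibitor Y-27632 (10 µM), and alone from day 3. Each group holds 2 cultures, each from 1 male mouse, and the mice were littermates. RNA of every culture was purified in duplicate, so the duplicates were averaged and n is 2 cultures. A gene was called higher or lower when it had one sign in both cultures and passed the limma test across all genes.

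Organoids grown from single intestinal cells pass through a fetal-like, regenerative state before stem cells, Paneth cells and the absorptive and secretory lineages reappear. Retinoic acid is the active form of vitamin A. It binds retinoic acid receptors (RARs), which sit on DNA as partners of retinoid X receptors (RXRs), and it turns on enzymes that clear it, above all the CYP26 family. RXRs also partner the fatty acid sensors called PPARs, the bile acid sensor FXR, the oxysterol sensor LXR and the vitamin D receptor, which are known in the small intestine for control of fat burning, bile acid handling, sterol efflux and calcium uptake.

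The 8 libraries held between 12895667 and 22257064 reads assigned to genes, and 3 reads in a gene of 1 kb came to at most 0.233 RPKM. Values are RPKM, reads per kilobase of gene and per 1000000 assigned reads. Duplicates differed far less than cultures: the chi-square per degree of freedom of read counts was 5.88 and 6.94 between atRA duplicates and 6.23 and 2.08 between DMSO duplicates, against 82.8 to 107 between the atRA cultures and 31.8 to 42.0 between the DMSO cultures. The label of intestinal epithelium fitted the markers: 7 epithelial markers summed to between 3090 and 5058 RPKM in atRA libraries and between 4463 and 5398 RPKM in DMSO libraries, and 7 intestinal markers to between 2982 and 3237 RPKM and between 3391 and 3551 RPKM. All 6 fibroblast and all 4 endothelial markers were under 1 RPKM in every library, with 4 and 2 of them at 0. The 5 tuft cell markers were also all under 1 RPKM. Sums of 6 goblet cell markers (2734 to 4390 RPKM in atRA libraries, 1876 to 2031 RPKM in DMSO libraries) and 6 Paneth cell markers (1536 to 2627 RPKM, against 1017 to 1421 RPKM) did not overlap between the groups. All 6 goblet markers were higher with atRA in both cultures. The Paneth sum was mostly Itln1 and Lyz1. Of its 6 markers, 3 were higher with atRA in both cultures, 1 (Pnliprp2) was lower in both and the rest differed in sign between cultures. In bulk RNA, fewer cells of a type and less RNA per cell cannot be told apart.

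With atRA, 20 of 27 PPAR target transcripts, 18 of 29 of fatty acid oxidation, 5 of 9 of bile acid handling and 4 of 8 direct retinoic acid targets were called higher. Called lower were 5 of 17 fetal-like markers and 3 of 19 basement membrane and integrin transcripts. Of 12443 genes tested, 626 were called (5.03%), 266 higher (2.14%) and 360 lower (2.89%). Among them, 88 were at least 2-fold higher (0.707%) and 62 at least 2-fold lower (0.498%) on the log2(RPKM + 1) scale, which understates changes of low genes. The 4 atRA libraries lay above all 4 DMSO libraries for 249 of the 266 genes called higher and for 606 of all genes tested (4.87%). They lay below all 4 DMSO libraries for 341 of the 360 called lower and for 901 of all tested (7.24%). The 5 largest rises were in Cyp4a10, Fabp6, Cyp26b1, Pdk4 and Cyp4a32, and the 5 largest falls in Ctrb1, Akr1c14, Wfdc2, Col4a1 and Krt4.

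The number of calls moved when single cultures were left out, which leaves 1 culture in a group. It also moved with the shared estimate of spread. With a day 1 library of 12443 reads kept in that estimate, 153 genes were called. The number was 24 when the estimate came from the day 5 cultures alone, including those given an RXR antagonist. In that last setting no gene was called in the lists of vitamin A uptake, LXR targets, cholesterol synthesis, brush border enzymes, chylomicron assembly, nutrient transporters, ion transport, interferon response, Notch, keratins or basement membrane, nor in the goblet, Paneth, enteroendocrine, stem cell and fetal-like lists. With the day 1 library kept, none was called in the vitamin A uptake, cholesterol synthesis, brush border, chylomicron and stem cell lists. Under all 18 alternatives tried, 19 genes were called, among them Cyp4a10, Cyp4a31, Cyp4a32, Fabp6, Cyp26b1, Pdk4, Acacb, Acot2, Hsd17b11, Defb37, S100g, Rnase4, Akr1b7, Ang, Fmo5 and Eci2 higher, and Ctrb1 and Akr1c14 lower.

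**Figure D1:**
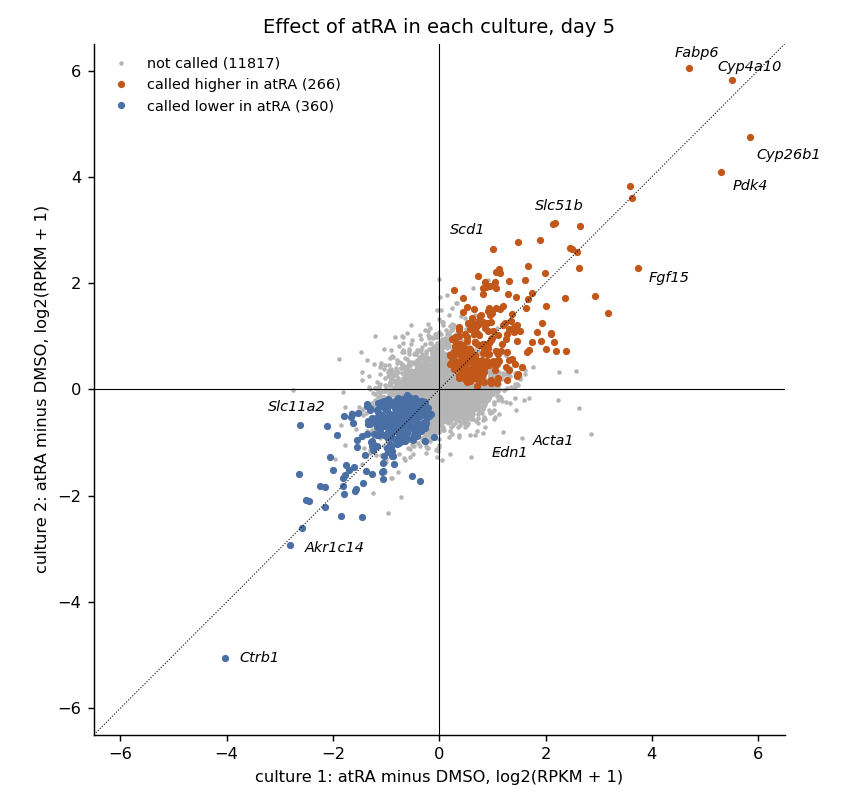
Each point is 1 of the 12443 genes tested: its atRA minus DMSO difference in culture 1 (x axis) and in culture 2 (y axis), both on log2(RPKM + 1). The 266 genes called higher lie above and right of 0 and the 360 called lower below and left of it, with Cyp4a10, Fabp6 and Cyp26b1 at one end and Ctrb1 at the other.

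Among genes of retinoid metabolism, the retinoic acid hydroxylase gene Cyp26b1 had the largest rise. Cyp26b1 (chr6:84571414-84593908, GRCm38) measured 110 and 136 RPKM in the duplicates of atRA culture 1 and 41.5 and 43.2 RPKM in those of atRA culture 2, against 1.04 and 1.28 RPKM in DMSO culture 1 and 0.483 and 0.766 RPKM in DMSO culture 2. Its log2 fold change was 5.29 ± 0.34 (SE), with an adjusted p of 4.95e-08 by limma. The groups were far apart, although atRA culture 1 stood clearly above atRA culture 2. The other clearance enzymes Cyp26a1 and Cyp26c1 did not reach the 1 RPKM needed for a test: Cyp26a1 had 0.0890 and 0.0802 RPKM in atRA culture 2 and 0 elsewhere, and Cyp26c1 was at 0 in all 8 libraries.

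Dhrs3, which reduces retinal back to retinol, and Isx, an intestinal homeobox repressor of vitamin A uptake genes, rose by less and more evenly. Dhrs3 measured 83.2, 89.1, 87.6 and 96.1 RPKM in atRA libraries, against 45.5, 44.5, 51.7 and 54.2 RPKM in DMSO libraries (log2 fold change 0.85 ± 0.18, adjusted p = 0.0107). Isx measured 264, 267, 266 and 254 RPKM in atRA libraries, against 93.5, 99.2, 138 and 138 RPKM in DMSO libraries (1.18 ± 0.14, adjusted p = 4.89e-05). Neither gene's groups overlapped, and for Isx the spread lay between the DMSO cultures. Tgm2, a transglutaminase long known as retinoid-induced, was the fourth called gene of the direct target list, at 30.2 ± 2.75 RPKM in atRA cultures and 17.9 ± 1.61 RPKM in DMSO cultures (mean ± SD, n = 2 each).

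In all, 4 of the 8 direct targets tested were called higher and none lower, with a median log2 fold change of 0.39, against 0.0018 over all genes. With the shallow day 1 library kept, and likewise from the day 5 cultures alone, 1 was called, Cyp26b1. Lrat, Nrip1 and Cdx1 had changes of -0.26, 0.06 and 0.04 and did not pass the test. Targets named most often in embryos and other tissues were close to absent: Rarb lay between 0.0108 and 0.157 RPKM over the 8 libraries, Crabp2 at or under 0.199 RPKM, and Stra8 at 0. Of the receptors, Rxra fell slightly, to 20.3 ± 2.94 RPKM in atRA cultures against 25.4 ± 0.166 RPKM in DMSO cultures (log2 fold change -0.32 ± 0.08, adjusted p = 0.0347). Rara, Rarg and Rxrb had changes of 0.01, -0.40 and 0.17 and did not pass the test. Of 12 genes of vitamin A uptake and storage, Isx and the retinol saturase gene Retsat were higher (445 ± 209 RPKM in atRA cultures, 144 ± 0.792 RPKM in DMSO cultures), and Scarb1, a carotenoid and lipid uptake receptor that ISX represses, was lower (10.2 ± 3.57 RPKM, against 19.6 ± 7.36 RPKM). Of 13 enzymes that oxidise retinol or retinal, the alcohol dehydrogenase gene Adh4 alone was called, higher, at 117 ± 18.6 RPKM in atRA cultures and 59.7 ± 9.98 RPKM in DMSO cultures.

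RAR and RXR pairs prefer a repeat of AGGTCA in the same direction with 5 free bases (N) between the copies, PPAR and RXR pairs the same repeat with 1 free base, and FXR and RXR pairs AGGTCA followed, after 1 free base, by its reverse complement TGACCT. These motifs were searched on both strands in 250 bases before to 50 after a start site of the gene, with up to 2 of the 12 fixed letters differing. In the RefSeq promoters of GRCm38.p6, 2.79% of 32851 windows held the repeat with 5 free bases, 3.86% that with 1 and 1.14% the inverted repeat. Counted per gene, as in the shares that follow, 2.45%, 3.83% and 1.12% of the 9792 tested genes with a window held them. Among genes called higher, 203 had a window, and 11 (5.42%), 13 (6.4%) and 3 (1.48%) held them. Among genes called lower, 284 had a window, and 3 (1.06%), 11 (3.87%) and 4 (1.41%) did. Of 26 genes chosen with their changes known from the retinoid, PPAR, bile acid, vitamin D and fatty acid synthesis lists, 18 had a window. Of these 18, 1 held the repeat with 5 free bases, 2 that with 1 and 2 the inverted repeat, and the windows of Cyp26b1, Dhrs3, Pdk4, Cpt1a, Slc51b and Nr0b2 were among those with none. The PPAR target Acaa1b held the inverted repeat. For 4 genes the window is printed here, 5′ to 3′ in the direction of the gene with 1 closest match in capitals. They were chosen because they hold a match to the motif named for their group and do not represent the other members. Isx held the repeat with 5 free bases with 2 letters off (first base at position 33 from the start), Fabp1 that with 1 free base and 1 letter off (position -67), Plin2 the same repeat with 2 letters off (position -225), and Fabp6 an inverted repeat with 2 letters off (position -222). The windows lie at chr8:74872924-74873223 on the plus strand (Isx), chr6:71199629-71199928 on the plus strand (Fabp1), chr4:86670010-86670309 on the minus strand (Plin2) and chr11:43601513-43601812 on the minus strand (Fabp6). Positions are counted from the start site of the window, which for Plin2 lies inside the listed gene (chr4:86626910-86670217). The Fabp6 window holds a second inverted repeat with 2 letters off, aggtgaataacct, closer to the start and left in lower case. A match is a description of the letters and says nothing of binding.
Isx: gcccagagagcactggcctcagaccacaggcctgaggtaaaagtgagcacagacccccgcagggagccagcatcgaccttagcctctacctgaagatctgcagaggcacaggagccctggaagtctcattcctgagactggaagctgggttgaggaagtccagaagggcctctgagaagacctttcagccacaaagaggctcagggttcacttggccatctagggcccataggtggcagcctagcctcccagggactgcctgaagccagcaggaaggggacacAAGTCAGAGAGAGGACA
Fabp1: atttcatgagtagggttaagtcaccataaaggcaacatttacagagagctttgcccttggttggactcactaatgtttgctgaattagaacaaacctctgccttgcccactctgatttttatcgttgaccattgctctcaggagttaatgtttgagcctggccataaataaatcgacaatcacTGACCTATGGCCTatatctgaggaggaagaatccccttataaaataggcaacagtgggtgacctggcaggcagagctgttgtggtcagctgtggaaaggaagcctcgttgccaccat
Plin2: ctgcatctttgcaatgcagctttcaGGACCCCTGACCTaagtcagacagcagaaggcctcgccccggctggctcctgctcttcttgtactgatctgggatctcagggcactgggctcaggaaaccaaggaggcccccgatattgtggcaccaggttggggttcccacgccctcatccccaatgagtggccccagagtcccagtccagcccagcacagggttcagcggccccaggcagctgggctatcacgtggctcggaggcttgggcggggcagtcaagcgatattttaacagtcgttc
Fabp6: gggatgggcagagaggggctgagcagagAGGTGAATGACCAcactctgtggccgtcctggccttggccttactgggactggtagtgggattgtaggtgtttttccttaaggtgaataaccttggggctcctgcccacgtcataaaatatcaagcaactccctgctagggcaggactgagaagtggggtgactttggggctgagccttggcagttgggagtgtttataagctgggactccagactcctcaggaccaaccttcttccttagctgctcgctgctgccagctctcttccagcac

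Most target genes of the PPARs rose. Of 27 tested, 20 were called higher and none lower, with a median log2 fold change of 1.06, and 25 were positive in both cultures. With the shallow library kept 12 were called, and from the day 5 cultures alone 6. Many of these genes are enterocyte genes, and a sum of 7 enterocyte markers ranged from 4239 to 11143 RPKM in atRA libraries and from 5249 to 6143 RPKM in DMSO libraries, which overlapped; its part in the rises was not tested. The fatty acid omega-hydroxylases led: Cyp4a10 measured 50.6, 51.2, 76.4 and 65.8 RPKM in atRA libraries, against 0.0536, 0.223, 0.299 and 0.243 RPKM in DMSO libraries (log2 fold change 5.67 ± 0.13, adjusted p = 1.82e-14). Cyp4a32 and Cyp4a31 rose by 3.71 ± 0.13 and 2.86 ± 0.10. These 3 genes are close paralogs in 1 cluster, so reads may be split among them and their separate levels are uncertain.

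Pdk4, the kinase that shuts off pyruvate dehydrogenase, measured 51.3, 50.3, 19.6 and 16.4 RPKM in atRA libraries, against 0.362, 0.251, 0.0898 and 0.121 RPKM in DMSO libraries (4.70 ± 0.29, adjusted p = 2.26e-08). The groups were far apart, and culture 1 was the higher culture in both. Fabp1, the liver-type fatty acid binding protein whose promoter is printed above, was the most abundant of these transcripts, at 17180, 19030, 25780 and 23620 RPKM in atRA libraries, against 5937, 5753, 8520 and 8565 RPKM in DMSO libraries (1.58 ± 0.36, adjusted p = 0.0138). Plin2, which coats lipid droplets, averaged 171 ± 67.0 RPKM in atRA cultures and 54.8 ± 14.2 RPKM in DMSO cultures (1.59 ± 0.20, adjusted p = 8.43e-05).

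The acyl-CoA thioesterase Acot2 measured 84.6, 83.8, 135 and 140 RPKM in atRA libraries, against 12.7, 13.6, 22.8 and 21.1 RPKM in DMSO libraries, and culture 2 was the higher culture in both groups. Acot1 and Acot2 rose by 2.57 ± 0.27 and 2.59 ± 0.25, and the peroxisomal thiolase Acaa1b by 2.35 ± 0.22. Acot1 and Acot2, and likewise Acaa1b and Acaa1a, are near-identical pairs among which reads may be split. Cpt1a, which commits long-chain fatty acids to mitochondrial oxidation, averaged 92.0 ± 4.83 RPKM in atRA cultures and 43.7 ± 4.33 RPKM in DMSO cultures (1.06 ± 0.09, adjusted p = 1.26e-06). Angptl4, a secreted inhibitor of lipoprotein lipase, averaged 58.3 ± 7.31 RPKM and 21.5 ± 3.25 RPKM. Ppara itself, the fatty acid oxidation member of the receptor family, was higher (28.9 ± 6.32 RPKM in atRA cultures, 11.7 ± 0.0126 RPKM in DMSO cultures), while Pparg, the adipogenic and epithelial differentiation member, was lower (12.3 ± 2.44 RPKM, against 25.5 ± 10.7 RPKM).

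Fatty acid oxidation enzymes followed. Of 29 tested, 18 were called higher and none lower (median 0.52). With the shallow library kept 10 were called, and from the day 5 cultures alone 1. They covered both organelles of fat burning: the mitochondrial trifunctional subunits Hadha (153 ± 6.98 RPKM in atRA cultures, 88.0 ± 0.0740 RPKM in DMSO cultures) and Hadhb (110 ± 11.1 RPKM, against 56.6 ± 4.18 RPKM), and the peroxisomal enzymes Eci2 (129 ± 10.8 RPKM, against 55.5 ± 5.26 RPKM) and Ehhadh (120 ± 14.4 RPKM, against 59.3 ± 1.87 RPKM). This list and the PPAR list share members, among them Cpt1a, Ehhadh and Acaa1b, so they are not separate counts. Oxct1, which tissues use to burn ketones, was lower (42.0 ± 13.8 RPKM in atRA cultures, 77.0 ± 15.6 RPKM in DMSO cultures). Hsd17b11, a lipid droplet dehydrogenase outside these lists, rose by 2.56 ± 0.14, at 475 ± 53.1 RPKM in atRA cultures and 79.2 ± 0.863 RPKM in DMSO cultures.

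**Figure D2:**
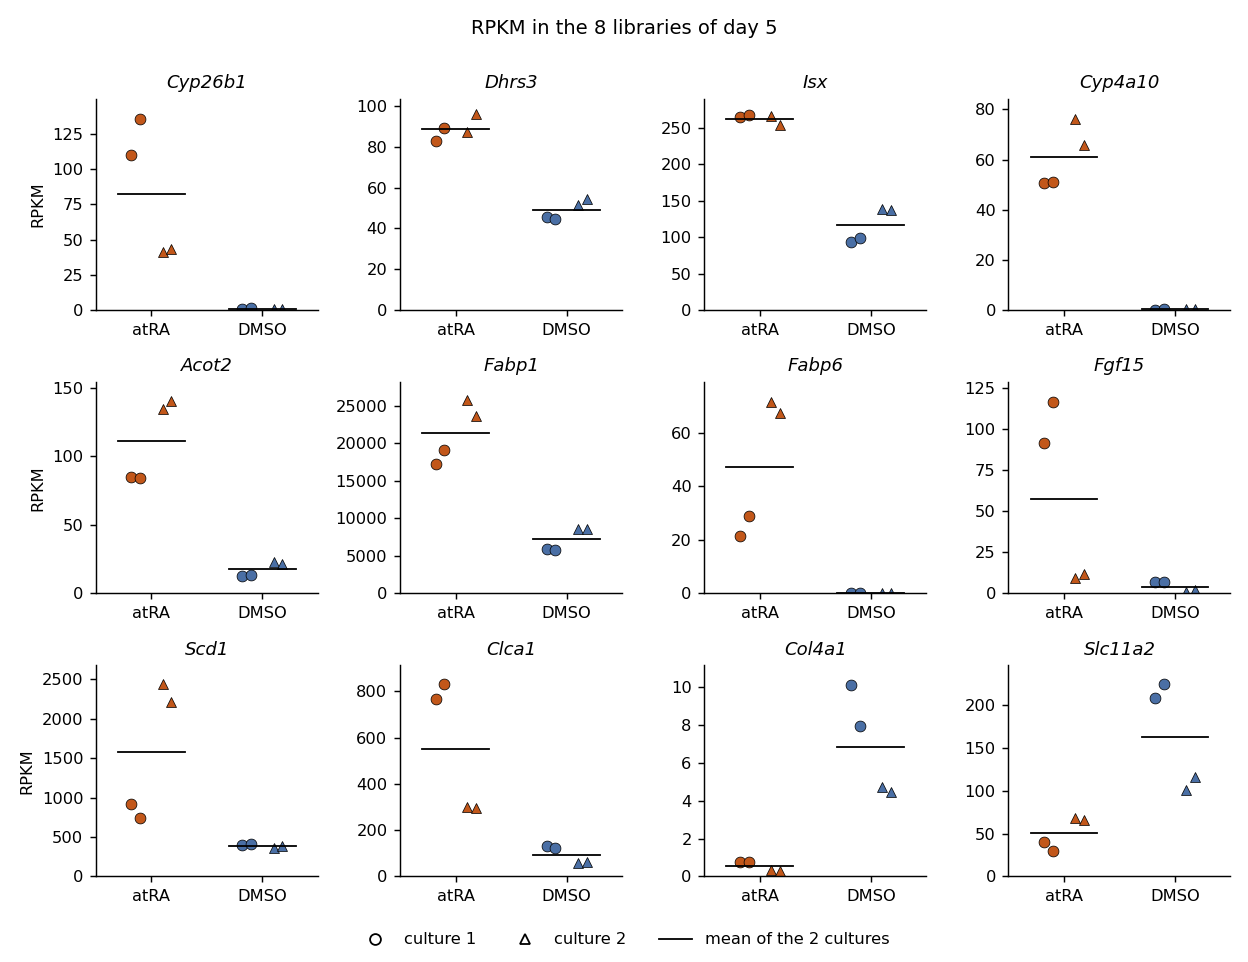
RPKM (y axis, linear, from 0) of 12 genes in each of the 8 libraries, atRA left of DMSO, with circles for culture 1, triangles for culture 2 and a line at the mean of the cultures. Dhrs3 and Isx are even across atRA libraries, whereas Fabp6 and Scd1 are higher in atRA culture 2 and Fgf15 and Clca1 in atRA culture 1.

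Genes of ileal bile acid handling were higher, led by Fabp6, the ileal bile acid binding protein. Of 9 FXR targets and bile acid handling genes tested, 5 were called higher and none lower, with a median of 1.31. From the day 5 cultures alone 1 was called, Fabp6. Fabp6 (chr11:43596040-43601562) measured 21.6, 28.9, 71.7 and 67.5 RPKM in atRA libraries, against 0, 0, 0 and 0.137 RPKM in DMSO libraries. That is 1927 reads over the atRA libraries and 1 read over the DMSO libraries, a ratio of 1354 after depth with a 95% interval of 243 to 53501, which covers counting error only. The fitted log2 fold change was 5.37 ± 0.32 (adjusted p = 1.52e-08), and atRA culture 2 was above atRA culture 1.

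The basolateral bile acid exporter subunits behaved alike. Slc51b measured 58.8, 56.8, 129 and 139 RPKM in atRA libraries, against 14.2, 10.7, 13.7 and 15.6 RPKM in DMSO libraries (2.63 ± 0.25, adjusted p = 5.47e-06), and its partner Slc51a averaged 66.2 ± 38.0 RPKM and 24.0 ± 3.00 RPKM (1.31 ± 0.26, adjusted p = 0.00562). In both, atRA culture 2 was the higher culture. Fgf15, the hormone that tells the liver to stop making bile acids, had the opposite order, with 91.6, 116, 9.12 and 11.4 RPKM in atRA libraries, against 6.57, 7, 0.901 and 1.78 RPKM in DMSO libraries (3.02 ± 0.66, adjusted p = 0.0122). Its atRA culture 2 lay only slightly above DMSO culture 1. Nr0b2, the corepressor SHP, rose from a low level (3.15 ± 2.39 RPKM in atRA cultures, 0.196 ± 0.121 RPKM in DMSO cultures). Slc10a2, the apical bile acid importer of the ileum, had 1.17 ± 1.19 RPKM and 1.25 ± 0.906 RPKM and did not pass the test.

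Of 9 LXR targets, 5 were called higher and none lower (median 0.63). Scd1, the stearoyl-CoA desaturase, measured 922, 740, 2446 and 2209 RPKM in atRA libraries, against 403, 417, 355 and 387 RPKM in DMSO libraries (1.83 ± 0.31, adjusted p = 0.00186). No library overlapped, and most of the rise lay in atRA culture 2. The sterol efflux transporters Abcg5 (142 ± 57.5 RPKM in atRA cultures, 68.9 ± 11.7 RPKM in DMSO cultures), Abcg8 (89.4 ± 29.1 RPKM, against 47.0 ± 7.24 RPKM) and Abca1 (1.75 ± 1.11 RPKM, against 0.541 ± 0.0439 RPKM) rose, as did the phospholipid remodelling enzyme Lpcat3 (274 ± 59.2 RPKM, against 174 ± 12.8 RPKM). With culture 1 of DMSO left out 2 of the 9 were called, and with the shallow library kept 3.

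Of 5 vitamin D receptor targets tested, S100g, the calcium-binding protein of enterocytes, and Vdr, the receptor itself, were higher. S100g measured 355, 375, 554 and 521 RPKM in atRA libraries, against 98.9, 82.9, 119 and 114 RPKM in DMSO libraries (2.10 ± 0.26, adjusted p = 8.43e-05). Vdr differed little, at 108 ± 9.38 RPKM and 83.4 ± 6.25 RPKM. Of 16 fatty acid synthesis genes, Acacb, Me1 and Scd1 were higher and none lower (median 0.15). Acacb, whose product makes the malonyl-CoA that restrains Cpt1a, averaged 6.98 ± 3.11 RPKM in atRA cultures and 0.221 ± 0.0789 RPKM in DMSO cultures (2.65 ± 0.18, adjusted p = 5.3e-08), and Me1, a source of NADPH, 119 ± 26.4 RPKM and 45.7 ± 14.2 RPKM. Cholesterol synthesis genes had the other sign: 20 of 24 genes were negative in both cultures (median -0.29), although only Msmo1, Lss and Fdft1 were called lower. Without culture 1 of DMSO none of the 24 was called, and without culture 2 of DMSO 10 were.

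**Figure D3:**
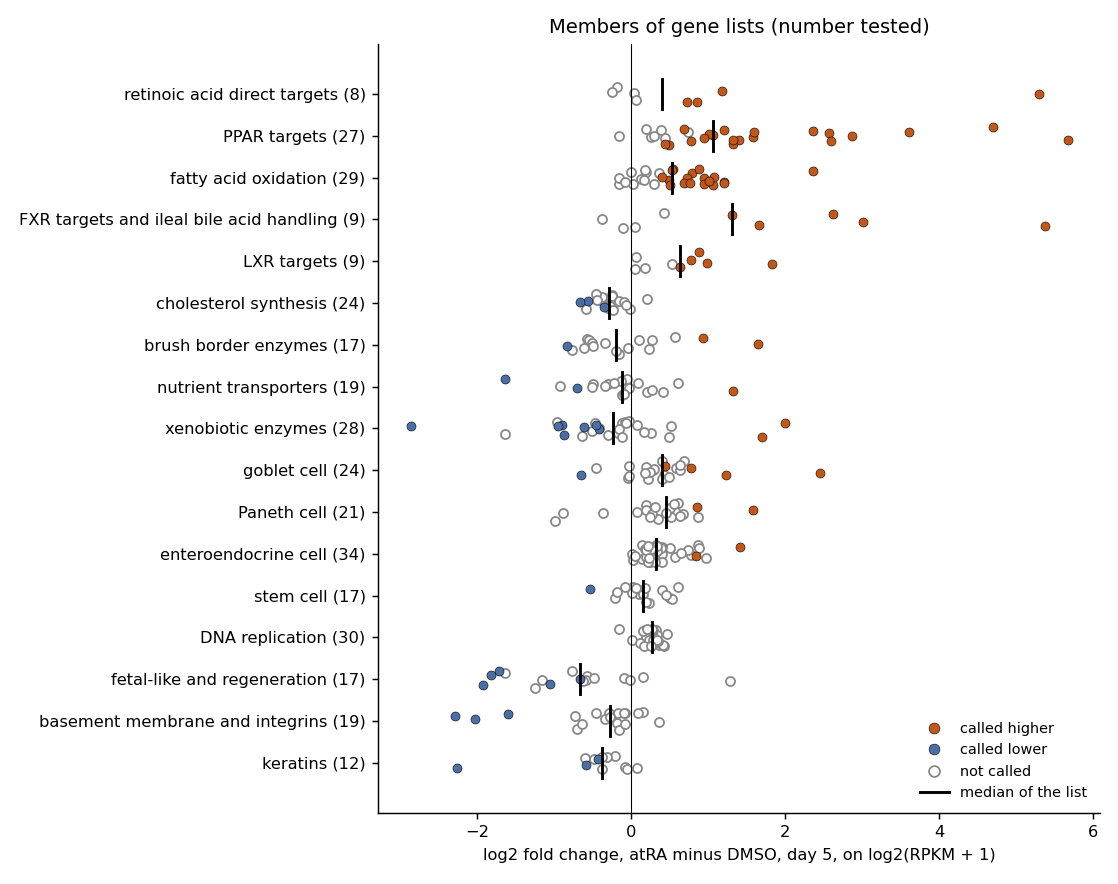
Each circle is a tested gene of the named list (number tested in brackets), placed at its log2 fold change of atRA minus DMSO on log2(RPKM + 1), filled orange when called higher, blue when called lower and open when not called, with a bar at the list's median. PPAR, fatty acid oxidation and FXR lists lie mainly to the right of 0, and the fetal-like list mainly to the left.

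Genes of the absorptive surface did not move as a group. Of 17 brush border enzymes, the metallopeptidase genes Mep1b (192 ± 39.5 RPKM in atRA cultures, 98.9 ± 3.90 RPKM in DMSO cultures) and Naaladl1 (38.3 ± 32.1 RPKM, against 9.62 ± 3.80 RPKM) were higher, and sucrase-isomaltase, Sis, was lower. Sis measured 389, 300, 595 and 468 RPKM in atRA libraries, against 938, 822, 661 and 655 RPKM in DMSO libraries (-0.84 ± 0.22, adjusted p = 0.0346), with most of the fall in culture 1. Of 16 chylomicron assembly genes, only Fabp2, the intestinal fatty acid binding protein, was called, higher, at 1541 ± 846 RPKM in atRA cultures and 594 ± 205 RPKM in DMSO cultures.

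Both genes of the apical iron uptake route fell. Slc11a2, the divalent metal transporter, measured 40.4, 29.5, 68.5 and 65.7 RPKM in atRA libraries, against 208, 225, 101 and 116 RPKM in DMSO libraries (-1.65 ± 0.32, adjusted p = 0.00508). Cybrd1, the duodenal ferric reductase, measured 13.1, 12.9, 10.6 and 9.66 RPKM in atRA libraries, against 91.0, 81.0, 30.4 and 34.8 RPKM in DMSO libraries (-2.11 ± 0.53, adjusted p = 0.0258). The groups did not overlap, and in both genes DMSO culture 1 was the highest. Of 19 nutrient transporters, the other calls were Npc1l1, the cholesterol importer, lower (56.2 ± 9.27 RPKM in atRA cultures, 93.4 ± 26.1 RPKM in DMSO cultures), and Cd36, the fatty acid translocase, higher (15.8 ± 7.47 RPKM, against 5.52 ± 1.78 RPKM). Among proximal small intestine genes, Gata4, the transcription factor of duodenum and jejunum, was slightly lower (55.9 ± 3.65 RPKM, against 68.5 ± 0.0482 RPKM), along with Cybrd1, while Fabp1 was higher.

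Of 28 xenobiotic enzymes, 7 were lower and 2 higher (median -0.24), beside 2.89% lower and 2.14% higher over all genes. Akr1c14, which reduces 3-ketosteroids, measured 4.77, 3.95, 3.20 and 2.18 RPKM in atRA libraries, against 37.8, 34.9, 26.5 and 26.8 RPKM in DMSO libraries (-2.86 ± 0.19, adjusted p = 5.48e-08), with no overlap. The glucuronyltransferase Ugt2b34 and the epoxygenase Cyp2c55 fell by 0.95 and by 0.90 on the log2 scale. The aldo-keto reductases Akr1b7 (169 ± 56.0 RPKM in atRA cultures, 40.7 ± 0.274 RPKM in DMSO cultures) and Akr1b8 (273 ± 33.1 RPKM, against 93.2 ± 59.5 RPKM) rose. Akr1c and Akr1b genes have close paralogs, among which reads may be split. Without culture 1 of DMSO, 1 of the 28 was called lower. Of 20 ion and water transport genes, 2 were called higher and 3 lower. The higher ones were Car8, of the carbonic anhydrase family, at 6.91 ± 2.10 RPKM in atRA cultures and 1.83 ± 0.303 RPKM in DMSO cultures, and the water channel Aqp1, at 91.2 ± 0.710 RPKM and 49.0 ± 26.3 RPKM, with DMSO culture 1 the lowest. Lower were, among others, the chloride channel Ano1 (3.48 ± 2.60 RPKM, against 9.35 ± 3.90 RPKM) and Atp1b1 (480 ± 14.5 RPKM, against 739 ± 114 RPKM).

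Several goblet cell genes were higher. Of 24 tested, 15 were positive in both cultures (median 0.39), and Clca1, Muc2, Galnt12 and Zg16 were called higher, while the gastric-type trefoil gene Tff2, at or under 1.10 RPKM throughout, was called lower. Zg16 and Tff2 were each called in 6 of the 18 alternatives. Of these genes, Clca1 alone was called with the shallow library kept. Tff2 had 1, 2, 1 and 2 reads in atRA libraries, against 9, 6, 2 and 9 in DMSO libraries. Clca1, a secreted regulator of mucus, measured 768, 830, 301 and 296 RPKM in atRA libraries, against 133, 125, 56.5 and 64.3 RPKM in DMSO libraries (2.46 ± 0.40, adjusted p = 0.00131). Muc2, the main gel-forming mucin, measured 21.5, 22.1, 37.4 and 30.5 RPKM in atRA libraries, against 7.92, 8.34, 14 and 15.8 RPKM in DMSO libraries (1.23 ± 0.24, adjusted p = 0.00501). Neither overlapped, and their culture orders were opposite: Clca1 was highest in culture 1 and Muc2 in culture 2 of each group. Without culture 1 of DMSO 1 of the 24 was called higher, and without culture 2 of DMSO 8.

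Of 21 Paneth cell genes, Mmp7, which activates defensins, and Itln1, a sugar-binding lectin, were higher. Mmp7 measured 278, 301, 110 and 118 RPKM in atRA libraries, against 60.7, 72.3, 53.1 and 55.4 RPKM in DMSO libraries (1.58 ± 0.33, adjusted p = 0.00938). Lysozyme, Lyz1, had 522 ± 147 RPKM in atRA cultures and 339 ± 74.5 RPKM in DMSO cultures and did not pass the test. Without culture 1 of atRA no Paneth gene was called higher and 2 were called lower. Of 34 enteroendocrine genes, the granule protein Chga (31.6 ± 9.47 RPKM, against 17.0 ± 1.97 RPKM) and the distal gut hormone Pyy (2.22 ± 1.51 RPKM, against 0.146 ± 0.00209 RPKM) were higher. Without culture 2 of atRA 17 of the 34 were called, and without culture 1 of DMSO none.

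No gene of DNA replication, mitosis or ribosome biogenesis was called among 30, 30 and 24 tested, with medians of 0.27, 0.10 and 0.24. Among 17 stem cell genes only Tnfrsf19, a receptor known as a Wnt target and under 1 RPKM here, was called, lower. Lgr5, the receptor that marks crypt base stem cells, had 10.6 ± 0.473 RPKM in atRA cultures and 13 ± 5.70 RPKM in DMSO cultures, and Olfm4, a secreted stem cell marker, 134 ± 62.5 RPKM and 124 ± 123 RPKM. None of 13 Wnt targets was called. Of 15 Notch and secretory fate genes, the ligand Jag1 (3.56 ± 0.717 RPKM, against 6.91 ± 1.92 RPKM) and the Notch effector Hes1 (50.9 ± 1.34 RPKM, against 64.5 ± 5.28 RPKM) were lower. Without culture 2 of DMSO, 19 of the 30 replication genes, 12 of the 24 ribosome biogenesis genes and 9 of the 17 stem cell genes were called higher.

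Of 17 tested markers of the fetal-like and regenerative state, 5 were called lower and none higher, and 13 were negative in both cultures, with a median of -0.67. With the shallow library kept 3 were called. Anxa8, an annexin, measured 1.37, 1.77, 0.422 and 0.380 RPKM in atRA libraries, against 8.50, 7.58, 3.63 and 4.28 RPKM in DMSO libraries (-1.82 ± 0.26, adjusted p = 0.00033). S100a6, a calcium-binding protein, measured 170, 253, 48.7 and 68.6 RPKM in atRA libraries, against 656, 492, 308 and 309 RPKM in DMSO libraries (-1.92 ± 0.40, adjusted p = 0.00838). Neither overlapped between the groups. Mesothelin, Msln, fell to 48.0 ± 31.7 RPKM in atRA cultures, against 153 ± 79.5 RPKM in DMSO cultures, and clusterin, Clu, the marker of revival stem cells, to 59.9 ± 34.1 RPKM, against 115 ± 7.91 RPKM. Anxa1 had a larger change, -1.65 ± 0.52, and did not pass (adjusted p = 0.0825). Without culture 1 of atRA 14 of the 17 were called lower and without culture 2 of atRA 3, and without culture 1 of DMSO 1 and without culture 2 of DMSO 9.

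Type IV collagen and nidogen, which build the basement membrane, fell together. Col4a1 (chr8:11198423-11312889) measured 0.766, 0.759, 0.335 and 0.294 RPKM in atRA libraries, against 10.1, 7.92, 4.75 and 4.45 RPKM in DMSO libraries (-2.29 ± 0.22, adjusted p = 4.72e-06). Its neighbour Col4a2 averaged 0.504 ± 0.272 RPKM in atRA cultures and 5.32 ± 2.42 RPKM in DMSO cultures (-2.03 ± 0.22, adjusted p = 1.74e-05), and Nid1, which links collagen IV to laminin, 0.907 ± 0.788 RPKM and 4.92 ± 2.92 RPKM (-1.60 ± 0.27, adjusted p = 0.00158). The groups did not overlap in Col4a1. These were the 3 calls among 19 basement membrane and integrin genes tested (median -0.27). Fibroblast markers summed to between 0.00531 and 0.0385 RPKM in atRA libraries and to at most 0.0348 RPKM in DMSO libraries, and their part in the result was not tested. Of 12 keratins, Krt4, a keratin of stratified epithelium, measured 1.01, 2.15, 0.198 and 0.581 RPKM in atRA libraries, against 15.1, 10.7, 5.34 and 4.43 RPKM in DMSO libraries (-2.27 ± 0.35, adjusted p = 0.000801). Krt19, the abundant simple keratin, fell by 0.59 and Krt5, at or under 0.792 RPKM, by 0.43.

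The largest fall of all genes tested was in Ctrb1, a chymotrypsinogen known as a pancreatic acinar enzyme. It measured 3.91, 1.98, 3.81 and 3.33 RPKM in atRA libraries, against 71.3, 53.0, 169 and 134 RPKM in DMSO libraries (-4.54 ± 0.37, adjusted p = 1.26e-06). DMSO culture 2 was the highest and the groups were far apart. Of a list of 5 acinar markers that includes Ctrb1, 2 were at 0 in every library. The list summed to between 5.50 and 7.61 RPKM in atRA libraries and to between 56.3 and 173 RPKM in DMSO libraries. In DMSO libraries that sum was nearly all Ctrb1 itself. Cela1, the only other marker of the list that was tested, was not called. It had 2.51, 3.50, 3.80 and 2.86 RPKM in atRA libraries, against 3.54, 3.31, 3.55 and 4.61 RPKM in DMSO libraries. The other large falls included the secreted protease inhibitor Wfdc2 (1.95 ± 1.33 RPKM in atRA cultures, 16.6 ± 7.94 RPKM in DMSO cultures), the complement inhibitor C4bp (1.73 ± 1.12 RPKM, against 10.4 ± 2.02 RPKM), the ciliary protein Tmem237 (7.66 ± 5.09 RPKM, against 38.1 ± 22.1 RPKM) and Efemp1, an extracellular matrix protein (2.40 ± 2.51 RPKM, against 11.2 ± 8.22 RPKM). Id2, an inhibitor of helix-loop-helix factors that BMP signals induce, fell to 15.0 ± 10.4 RPKM, against 49.7 ± 26.6 RPKM (-1.74 ± 0.44, adjusted p = 0.0282).

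Defence and immune genes gave few calls. Of 10 antimicrobial genes Dmbt1, a secreted scavenger receptor, was higher (606 ± 93.3 RPKM in atRA cultures, 238 ± 7.45 RPKM in DMSO cultures). Pigr, which carries IgA across the epithelium, was higher (1154 ± 52.2 RPKM, against 671 ± 48.6 RPKM), and Ccl20, a chemokine for lymphoid cells, was lower (2.81 ± 0.618 RPKM, against 6.48 ± 1.48 RPKM). Of 14 interferon response genes, the regulatory factor Irf1 rose to 24.0 ± 0.250 RPKM in atRA cultures, against 12.9 ± 0.246 RPKM in DMSO cultures, and Ifi27l2b fell to 92.6 ± 8.44 RPKM, against 192 ± 5.98 RPKM. Outside them, the class I genes H2-D1 and H2-K1, whose reads may be shared with related class I genes, rose by 0.51 and 0.60 on the log2 scale. The ribonuclease genes Rnase4 and Ang, which share a locus so that reads may be split, rose by 2.04 ± 0.17 and 1.79 ± 0.15. In metabolism outside lipids, Oat, which links ornithine to proline and glutamate, was lower at 476 ± 2.08 RPKM in atRA cultures and 841 ± 64.1 RPKM in DMSO cultures. None of 22 glycolysis genes was called, though 19 were negative in both cultures (median -0.39). None of 17 YAP targets, 16 claudin and junction genes, 13 NRF2 targets, 19 endoplasmic reticulum chaperones or 10 gluconeogenesis and fructose genes was called, and none of 22 Hox genes reached the level for a test.

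The cultures from the 2 mice differed in their response, and the difference was described without a test, since each mouse gave 1 culture per group. Over all 12443 genes, most of them not called, 6126 (49.2%) had one sign in both. With libraries rescaled by their median ratio the number was 6932 (55.7%). Among genes with an effect of at least 1 log2 unit in each culture, 107 had one sign and 2 had opposite signs. Across all genes tested, the effects in the 2 cultures correlated at 0.435. In culture 1 alone, replication and other growth genes were higher: 29 of 30 DNA replication genes and all 30 mitosis genes were positive in culture 1, against 3 and 1 in culture 2, with list medians of 0.61 and 0.49, against -0.08 and -0.27. The replicative helicase gene Mcm3 had 40.3, 43.3, 40.5 and 43.2 RPKM in atRA libraries, against 20.7, 24.2, 44.3 and 40.6 RPKM in DMSO libraries, so the low values were those of DMSO culture 1. Olfm4 had 98.4, 81.2, 183 and 173 RPKM in atRA libraries, against 37.1, 36.9, 220 and 202 RPKM in DMSO libraries, again with DMSO culture 1 lowest.

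Absorptive genes split the other way. The medians of brush border enzymes were -0.59 in culture 1 and 0.13 in culture 2, of nutrient transporters -0.44 and 0.18, and of chylomicron genes -0.29 and 0.47. The glucose transporter Slc5a1 had 213, 194, 413 and 383 RPKM in atRA libraries, against 435, 381, 398 and 396 RPKM in DMSO libraries, so here atRA culture 1 was the one that stood apart. Among the lists whose median had one sign in both cultures were the PPAR targets (0.92 and 1.23), FXR targets (0.82 and 1.79), fatty acid oxidation (0.39 and 0.70) and fetal-like genes (-0.50 and -1.04). Paneth and enteroendocrine lists were led by culture 1, with Paneth medians of 0.98 and -0.03 and enteroendocrine medians of 0.71 and 0.04.

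**Figure D4:**
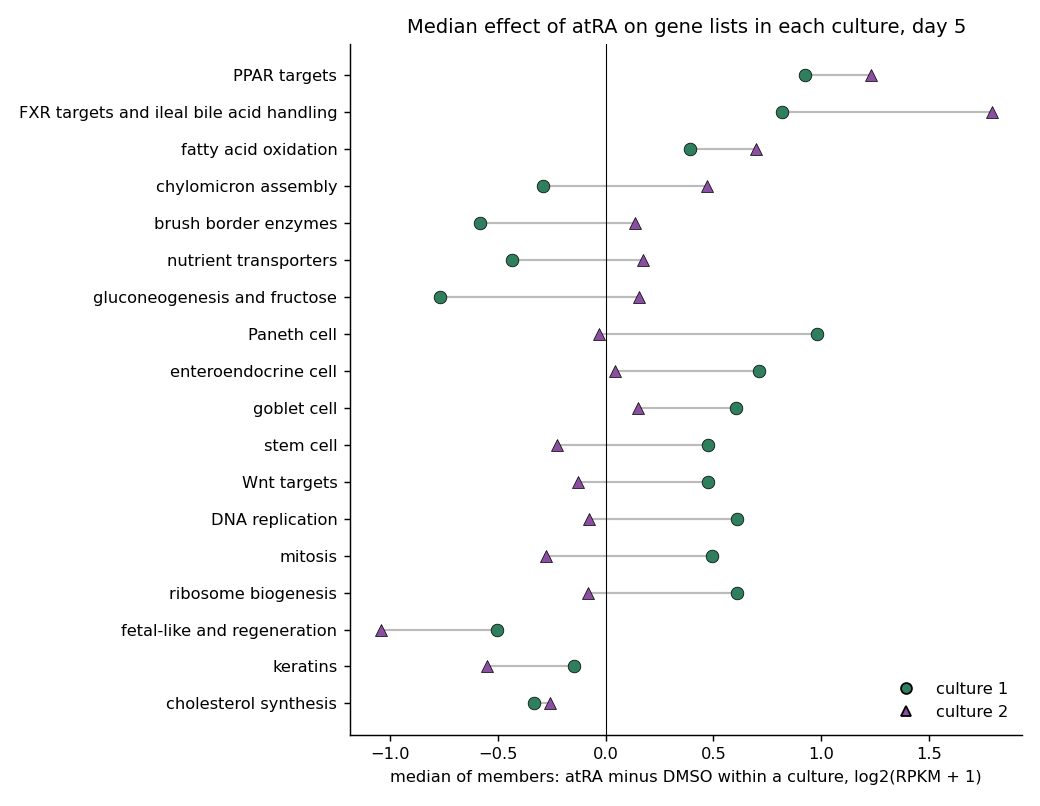
Median over a list's tested genes of the atRA minus DMSO difference on log2(RPKM + 1) (x axis), circles for culture 1 and triangles for culture 2, with a line joining them. PPAR, FXR and fatty acid oxidation lists lie right of 0 in both cultures, while DNA replication, mitosis and stem cell lists lie right of 0 in culture 1 alone.

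Among called genes, the effects were ranked by their signed difference between cultures. Slc11a2, which fell less in culture 2, and Scd1, which rose more there, led in one direction. Gkn3, Ppef1 and Ceacam1, which rose more in culture 1, led in the other. Slc11a2 fell by 2.61 in culture 1 and by 0.68 in culture 2, and Scd1 rose by 1.01 and by 2.64. Gkn3, a gastrokine-family gene, rose by 3.18 in culture 1 and by 1.43 in culture 2, Ppef1, a protein phosphatase, by 2.38 and by 0.71, and Ceacam1, a cell adhesion receptor, by 2.19 and by 0.73. At least 1 log2 unit lay between the cultures for 467 genes in atRA and for 242 in DMSO, against 13 to 117 genes in the other groups of the series. Opposite signs of at least 0.5 log2 in each culture occurred in 57 genes.

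The day 5 effect was also set against that of day 4, 1 day earlier in the same cultures, by testing the difference between them. No gene was called by limma, with 1387 at an unadjusted p under 0.05, and none by limma-voom on reads recovered from the RPKM values, with 1378. Among those nearest to a call were Cyp4a10, Cyp4a31 and Cyp4a32, whose effects were larger on day 5 by 1.08, 0.88 and 1.13 log2 (adjusted p = 0.0598 for each). Without culture 2 of day 5 atRA 1782 genes were called, and without culture 2 of day 5 DMSO 225. Leaving out any other culture gave at most 4.

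Levels on the earlier days are given for culture 1 and culture 2 in turn, as descriptions. Cyp26b1 in atRA was 1.73 and 2.20 RPKM on day 1, 3.75 and 1.81 RPKM on day 3, 32.9 and 21.0 RPKM on day 4 and 123 and 42.3 RPKM on day 5, while DMSO cultures had at most 1.16 RPKM. Most of the level in atRA was thus reached after day 3, when the medium was changed to ENR alone and atRA was given again. The parts of these events cannot be told apart. Fabp1 in atRA was 2425 and 3448 RPKM on day 1, 7494 and 7850 on day 3, 23210 and 22820 on day 4 and 18110 and 24700 RPKM on day 5. Fabp1 in DMSO was 69.8 and 111 RPKM on day 1, 51.0 and 60.3 on day 3, 2245 and 2522 on day 4 and 5845 and 8543 RPKM on day 5, so DMSO cultures came closer to atRA cultures late.

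Slc11a2 was closer between the groups on day 4 than on day 5. On day 4 it had 74.0 and 48.1 RPKM in atRA and 83.8 and 53.4 RPKM in DMSO, and on day 5 it had 35 and 67.1 RPKM in atRA and 217 and 108 RPKM in DMSO. The difference between days did not pass the test (-1.49 ± 0.45, adjusted p = 0.389). Ctrb1 was high in DMSO alone and late, with 5.14 and 4.40 RPKM in atRA and 23.5 and 49.5 RPKM in DMSO on day 4, and 2.94 and 3.57 RPKM in atRA and 62.2 and 152 RPKM in DMSO on day 5. Col4a1 was lower in atRA throughout, at 1.73 and 1.51 RPKM against 6.5 and 5.55 RPKM in DMSO already on day 1.

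**Figure D5:**
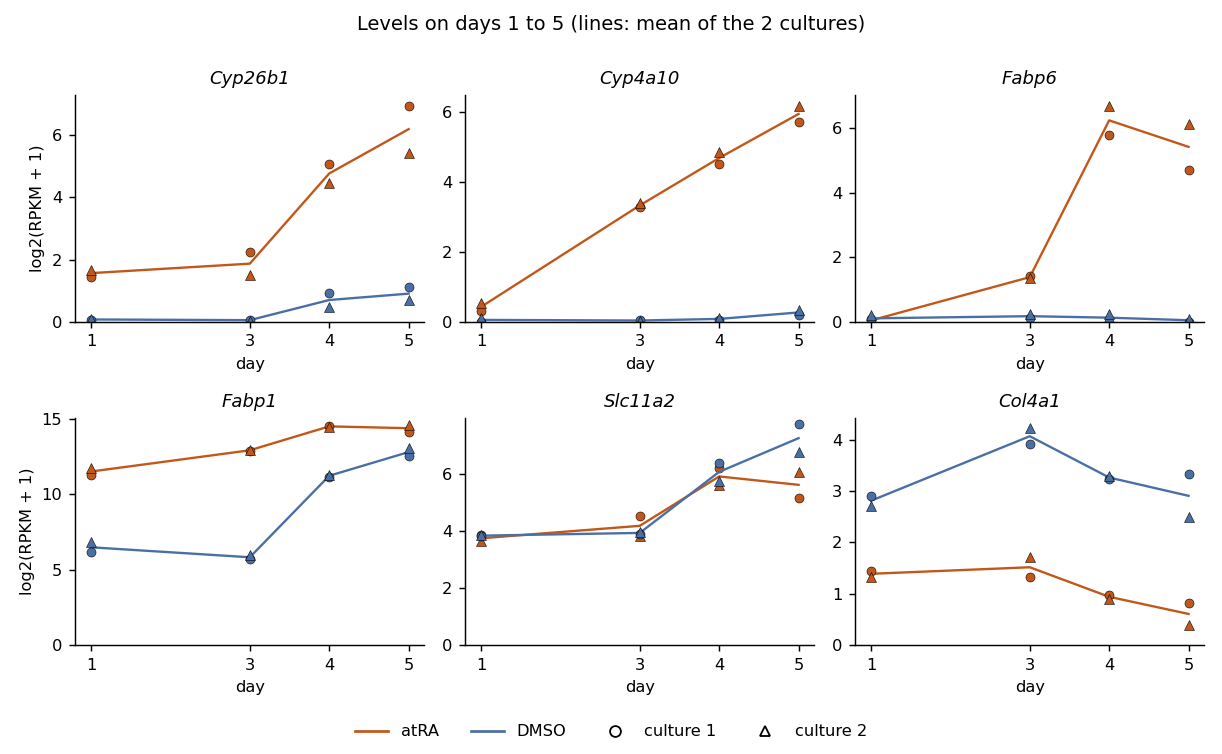
Levels as log2(RPKM + 1) (y axis) of 6 genes on days 1, 3, 4 and 5 (x axis) in atRA (orange) and DMSO (blue), with circles and triangles for cultures 1 and 2 and lines through their means. The atRA lines of Cyp26b1 and Cyp4a10 are highest on day 5 and that of Fabp6 on day 4. The DMSO line of Slc11a2 lies slightly above the atRA line on day 4 and further above it on day 5.

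The series also treated organoids with 5 µM of an RXR antagonist, and its comparison shares the DMSO cultures, so its day 5 levels stand here side by side without a test. Fabp1 had 18110 and 24700 RPKM in atRA, 53.1 and 28.1 RPKM with the antagonist and 5845 and 8543 RPKM in DMSO. Isx had 266 and 260 RPKM in atRA, 0.533 and 0.323 RPKM with the antagonist and 96.4 and 138 RPKM in DMSO. The order of levels was the reverse in Col4a1 (0.762 and 0.315 RPKM in atRA, 62.6 and 80.1 RPKM with the antagonist, 9.02 and 4.60 RPKM in DMSO) and Anxa8 (1.57 and 0.401 RPKM, 170 and 175 RPKM, 8.04 and 3.96 RPKM). Ctrb1 did not have that order: it had 2.94 and 3.57 RPKM in atRA, 0.203 and 0.0930 RPKM with the antagonist and 62.2 and 152 RPKM in DMSO.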

How the data were processed

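Libraries were prepared with a poly(A)-based Illumina kit from DNase-treated RNA, per the labels' protocols. The submitters' processing notes name STAR 2.5.2b, bcl2fastq 2.17 and mm10 as the build. How reads were counted, and with which annotation and strand setting, is not given in the sources used here. The authors deposited 1 table of RPKM for 24116 genes and 52 libraries, per the file headers. Its values were whole multiples of 1 read for all 19708 genes above 0 (tolerance 0.001), so read counts could be recovered for depth, and the unit stayed RPKM for the main test.

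Duplicates were averaged on log2(RPKM + 1), and limma 3.58.1 (R 4.3.3, trend and robust options) was fitted to the 26 culture means of all 13 groups, with 13 residual degrees of freedom. Across genes, the difference between cultures had an SD of 0.427 in day 5 atRA and 0.378 in day 5 DMSO. In the other groups it was 0.151 to 0.292. The shared spread thus comes mostly from tighter groups, so the SEs and adjusted p may be too small for the groups compared. Tests were two-sided on the 12443 genes that reached 1 RPKM in 4 or more libraries and adjusted by Benjamini-Hochberg. The other 11673 were not tested. A day 1 DMSO duplicate of 12443 reads, a total that equals the number of genes tested by coincidence, was left out. Called genes had an adjusted p of at most 0.05 and one sign in both cultures, and 19 of the 626 called were predicted models or small RNAs, which were not named. Tables and plots were made with Python 3.11.15. The procedure was tested on simulated data with the same spread between cultures in every group. That simulation could not show what the wider spread of the day 5 groups does to the adjusted p.

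Members and gene lists were chosen with earlier results of these data known. Named genes were the 15 largest called changes each way, up to 6 members of smallest p in each list (all members for retinoid lists), the 8 with the largest opposite signs between cultures, and the 6 each way with the largest culture difference. Plin2, Defb37, Rnase4, Ang, Fmo5, Lgr5 and Slc10a2 were named after their values were seen. A few genes that this rule names are not reported here. Same-numbered cultures come from the same mouse, per the labels. Over 78 pairs of groups, deviations of same-numbered cultures correlated with a median of 0.149 (-0.317 to 0.759), 47 of them above 0.1. For the pair compared here, day 5 atRA and day 5 DMSO, the correlation was 0.470. The main fit did not use the pairing. Of the genes tested, 12428 (99.9%) were matched by Entrez ID to RefSeq (GRCm38.p6), the source of coordinates and promoter sequences, and 9792 had a promoter window. Alternatives covered the pseudocount, the filter, the scaling, the shallow library, the groups in the fit, the replicate block, the averaging, limma-voom on recovered reads, and each culture left out.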

Additional observations from a re-analysis of the deposited data

Results flagged for a closer look

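Of the genes tested, 8 with the largest opposite effects in the cultures of the 2 mice were set aside for a closer look: all of a gene's atRA duplicates lay on one side of DMSO in culture 1 and on the other in culture 2. The difference was not tested, because each mouse gave 1 culture per group. The skeletal actin gene Acta1 and the endothelin gene Edn1 differed most, with an effect in culture 1 minus that in culture 2 of 2.48 and 2.00 on the log2 scale. Acta1 measured 41.0, 45.5, 11.1 and 14.4 RPKM in atRA libraries, against 12.3, 15.9, 25.6 and 23.9 RPKM in DMSO libraries. Edn1 measured 15.9, 16.8, 1.26 and 1.45 RPKM, against 8.99, 4.73, 3.12 and 3.11 RPKM. The Paneth cell ribonuclease Ang4 had a difference of 1.56, with atRA culture 1 the highest. The other 5 ran the other way, with atRA above DMSO in culture 2 alone: the alanine aminotransferase gene Gpt (-1.71), the ectoenzyme gene Bst1 (-1.66), the antisense transcript Hnf4aos (-1.65, counted without a stated strand, so reads of Hnf4a cannot be told apart), the carbonyl reductase gene Cbr3 (-1.42) and Ceacam18 (-1.40). Within a group, 5 named genes had 1 of the 4 libraries far from the other 3 by Dixon's criterion, which chance meets in about 1 of 20 groups (the libraries are duplicates of 2 cultures). In atRA these were the highest libraries of Gkn3 (19.2 RPKM, culture 1) and Galnt12 (15.9 RPKM, culture 2), and in DMSO the lowest libraries of Acaa1b (69.5 RPKM), Chga (13.2 RPKM) and Tgm2 (15.0 RPKM), each a duplicate of culture 1.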

How the results depend on the processing

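Counts of calls moved by over 1.5 times in 2 planned settings: with the shallow library kept, 153 genes were called (98 higher, 55 lower), and with day 5 groups alone 24 (20 higher, 4 lower). Leaving out 1 culture at a time gave 263 to 1884 calls, 155 to 1003 higher and 108 to 937 lower. The number of culture means behind the shared spread differs with day 5 groups alone and with a culture left out. With the shallow library kept it stays at 26, and 1 of these means is then averaged with that library. All other settings stayed between 472 and 799, and limma-voom on recovered reads, added after seeing the data, gave 600. With the replicate block, which pairs cultures of the same mouse, 799 were called (319 higher, 480 lower), among them all 626. For the day 5 effect minus the day 4 effect, with no call in the main analysis, a pseudocount of 5 gave 9 (3 higher, 6 lower), no filter on low values 12 (5 higher, 7 lower), the replicate block 6 (4 higher, 2 lower) and duplicate 2 alone 1, higher. Leaving out 1 culture at a time gave 0 to 1782 (0 to 1258 higher, 0 to 524 lower). The cause was not tested. Over 130 named genes and 18 settings, 2034 of 2332 values (some genes had none under the filter of 5 RPKM) kept side and direction, 289 no longer passed, 8 newly passed and 1 reversed. That was Edn1, whose log2 fold change of 0.20 became -1.25 without culture 1 of atRA and 1.64 without culture 2 of atRA. Planned edgeR and DESeq2 fits were not run, because the deposited values are RPKM. At this depth, differences of genes near 0.233 RPKM rest on a few reads.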

Other observations

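Some genes not described above also differed between atRA and DMSO cultures. Fmo5, a flavin monooxygenase of the gut and liver, had 186 ± 6.83 RPKM in atRA cultures and 73.8 ± 0.315 RPKM in DMSO cultures (log2 fold change 1.32 ± 0.17, adjusted p = 9.64e-05 by limma). Defb37, a defensin, had 11.1 ± 3.34 RPKM and 1.39 ± 0.681 RPKM (2.34 ± 0.20, adjusted p = 1.46e-06). Both were among the genes called under every alternative tried. Of the neonatal gut genes, Fcgrt, the receptor that carries maternal IgG, had 13.1, 12.8, 27.7 and 29.1 RPKM in atRA libraries, against 8.0, 6.35, 9.71 and 10.8 RPKM in DMSO libraries (1.08 ± 0.25, adjusted p = 0.0147). Of 18 genes of cell death and senescence, Cdkn2a, a cell cycle inhibitor locus, had 2.73 ± 1.03 RPKM and 6.55 ± 1.39 RPKM (-1.05 ± 0.22, adjusted p = 0.00734), and Ccng1, a p53 target, had 60.5 ± 22.8 RPKM and 103 ± 33.1 RPKM (-0.78 ± 0.21, adjusted p = 0.0399).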
